A study of Homo sapiens with 16 samples.

Results

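A set of 10 genes of the Notch pathway was followed here in H1 human embryonic stem cells, an established pluripotent line, over days 0 to 7 with or without BMP4 (bone morphogenetic protein 4, a secreted ligand whose receptors phosphorylate SMAD1, SMAD5 and SMAD8). The genes are the transcriptional repressors HEY1, HEY2, HES1 and HES5, the ligands DLL1, DLL3 and JAG1, and the receptors NOTCH1, NOTCH2 and NOTCH3. They were taken by gene symbol from the platform annotation, which gives 14 probes for them among 30113 probes with 1 symbol for 20046 genes. All 10 were among the 13083 genes that passed the filter on dim probes. The BMP4 group was H1 cells given BMP4 at 100 ng/ml, and the untreated group was H1 cells given none. Both were cultured on Matrigel in mTeSR medium, and each was profiled on 1 Illumina bead array per day, 8 arrays per group and 16 in all. The labels do not say whether the BMP4 array of day 0 was taken before or after BMP4 was added, or how many cultures the arrays come from. For the tests, days 1 to 3 made up an early window with 3 arrays in each group, and days 4 to 7 a late window with 4 arrays in each group. The p-values measure the spread between the arrays of a window, which can be technical, and they take in any trend over those days.

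Notch is a cell surface receptor that is activated by Delta (DLL) and Jagged (JAG) ligands on a neighbouring cell. Ligand binding leads to cleavage of the receptor by ADAM proteases and then by gamma-secretase, and the freed intracellular domain enters the nucleus and joins the DNA-binding protein RBPJ and the co-activators of the MAML family. HES and HEY genes are the best known targets of that complex, and HEY1 is also known to respond to BMP signalling through SMADs in several cell types. In early embryos the pathway is known for its part in neurogenesis, somite formation and vessel development.

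The promoters of the HES and HEY genes among the 10 are shown because these genes are the best known targets of the RBPJ complex. RefSeq windows on GRCh38.p14, from 250 bases before to 50 bases after the annotated start, were matched for 7 of the 10 genes, leaving out HEY1, DLL1 and DLL3. Each window was searched for TGGGAA, the core of the RBPJ motif, and for its reverse complement on the other strand, TTCCCA. It was also searched for GGCGCC, which reads the same on both strands and is the core of a GC-rich motif bound by SMAD1 and SMAD5. The capitals mark these letters, and no match overlapped another. HEY2 was read at chr6:125749382-125749681 on the plus strand, HES1 at chr3:194135898-194136197 on the plus strand and HES5 at chr1:2530214-2530513 on the minus strand.
HEY2: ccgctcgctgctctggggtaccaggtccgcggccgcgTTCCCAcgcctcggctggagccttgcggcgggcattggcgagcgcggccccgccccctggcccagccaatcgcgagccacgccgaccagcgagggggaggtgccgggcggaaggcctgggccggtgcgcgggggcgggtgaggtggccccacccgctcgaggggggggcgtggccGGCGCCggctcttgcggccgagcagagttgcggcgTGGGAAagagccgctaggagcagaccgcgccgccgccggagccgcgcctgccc
HES1: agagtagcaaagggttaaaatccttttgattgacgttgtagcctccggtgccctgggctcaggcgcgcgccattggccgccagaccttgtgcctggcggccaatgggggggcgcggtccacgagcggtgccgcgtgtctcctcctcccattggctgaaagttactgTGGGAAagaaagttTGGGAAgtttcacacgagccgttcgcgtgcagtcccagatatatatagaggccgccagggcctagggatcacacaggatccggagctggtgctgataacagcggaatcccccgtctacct
HES5: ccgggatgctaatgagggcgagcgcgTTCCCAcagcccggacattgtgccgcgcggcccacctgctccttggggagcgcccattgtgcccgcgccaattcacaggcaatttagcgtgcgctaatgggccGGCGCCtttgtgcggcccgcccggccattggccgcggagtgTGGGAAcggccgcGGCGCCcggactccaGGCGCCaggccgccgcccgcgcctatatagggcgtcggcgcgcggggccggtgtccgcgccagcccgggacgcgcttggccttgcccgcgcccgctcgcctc
Each of these 3 windows held 2 matches to the RBPJ core. Among all 35116 promoters of this length 24.0% held at least 1 match and 3.80% held 2 or more. In HES1 both matches ran in the direction of transcription, with first bases at -84 and -70 from the start, whereas in HEY2 and HES5 they ran in opposite directions. The SMAD core was found 1 time in HEY2, 3 times in HES5 and 0 times in HES1, and 19.2% of all promoters held it. The windows of NOTCH1, NOTCH2, NOTCH3 and JAG1 held 0 matches to the RBPJ core. Of 2 other Notch targets searched, HEYL held 2 matches to the RBPJ core and 3 to the SMAD core, and NRARP held 0 and 2. A match describes these letters only, and no binding was measured.

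Levels are given as deposited intensities on a linear scale, where 135.9 was the detection floor estimated from the values below the main peak. Changes are differences of log2 levels after background correction, with an offset that pulls in the changes of dim genes. Levels of different probes cannot be compared. The targets of BMP signalling were used to check the labels, and all 9 tested members of a list of direct BMP targets were higher in BMP4 cells in both windows. Of all tested genes 16.4% were called higher in the early window and 27.8% in the late window. The median log2 change over all tested genes was 0.04 in the early window and 0.00 in the late window. Precision is limited by the number of arrays.

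**Figure D1:**
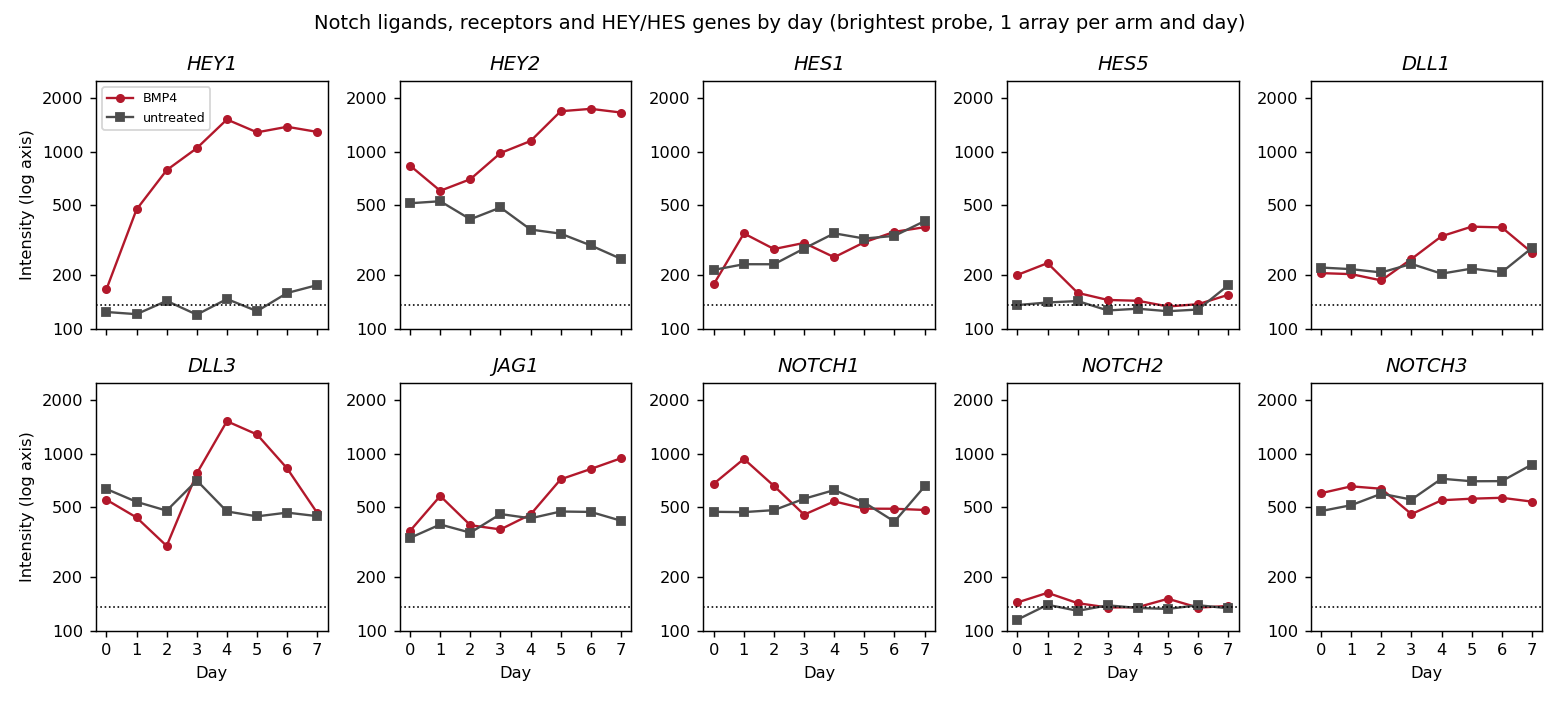
Deposited intensity (log axis) of the brightest probe of each gene against the day, with 1 array per point, BMP4 cells as red circles and untreated cells as grey squares. The dotted line is the detection floor of 135.9, and HEY1 reached 1517 in BMP4 cells on day 4 while it stayed between 120 and 176 in untreated cells.

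In the early window 2 of the 10 genes were higher in BMP4 cells, HEY1 and HEY2, and 0 were lower, where 30.0% of all tested genes were called, 16.4% as higher and 13.6% as lower. In the late window 5 were higher (HEY1, HEY2, DLL1, DLL3 and JAG1) and 1 was lower (NOTCH3), where 55.0% of all tested genes were called, 27.8% as higher and 27.2% as lower. The late share of called genes among the 10 is thus close to that over all genes. The median log2 change of the 10 genes was 0.40 in the early window and 0.49 in the late window. Subtraction of the day 0 difference between the groups left 1 gene called in the early window (HEY1) and 3 in the late window (HEY1, HEY2 and NOTCH3).

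HEY1, a basic helix-loop-helix repressor encoded on chromosome 8, changed most of the 10. Its brightest probe had an intensity of 167 on day 0 in BMP4 cells, against 124 in untreated cells. Over days 1 to 3 it had 471, 785 and 1045 in BMP4 cells, against 121, 144 and 120 in untreated cells. Over days 4 to 7 it had 1517, 1284, 1379 and 1291 in BMP4 cells, against 147, 126, 159 and 176 in untreated cells. The BMP4 level was thus high from day 1, was highest on day 4, and did not overlap the untreated level in either window, while only 4 of the 8 untreated arrays lay above the floor. HEY1 was at least 17.1-fold higher in BMP4 cells in the early window (adjusted p = 1.64e-07, log2 change 4.46, SE 0.35), a bound because the untreated mean lay under the floor. In the late window it was 26.9-fold higher (adjusted p = 3.57e-09, log2 change 4.75, SE 0.30). The effect did not change detectably between the windows (late minus early 0.29, 95% interval -0.68 to 1.26, adjusted p = 0.748).

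Within the BMP4 group HEY1 was higher in days 4 to 7 than in days 1 to 3 by 1.03 on the log2 scale (SE 0.33, adjusted p = 0.0270). That rise was no longer past the test without the BMP4 array of day 1 (0.65, adjusted p = 0.160), of day 2 (1.10, adjusted p = 0.0585) or of day 6 (1.02, adjusted p = 0.0585). The groups already differed by 1.37 on the log2 scale on day 0, where the untreated array lay under the floor. With that difference subtracted, the change was 3.09 in the early window (adjusted p = 0.0296) and 3.38 in the late window (adjusted p = 0.00341). The second HEY1 probe was dimmer and ran the same way. It had 178, 227 and 302 over days 1 to 3 and 384, 341, 326 and 317 over days 4 to 7 in BMP4 cells, and it exceeded the floor on 1 of 8 untreated arrays. By that probe HEY1 was at least 3.65-fold higher in the early window (log2 change 2.23, SE 0.28) and at least 6.77-fold higher in the late window (log2 change 2.98, SE 0.24). The size of the fold thus depends on the probe, and its direction does not. The folds and bounds also depend on the processing. Under the alternatives other than leaving out 1 array, the log2 change of HEY1 ranged from 2.51 to 4.49 in the early window. In the late window it ranged from 3.18 to 4.75. The lowest values were those with no background correction.

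HEY2, the close paralogue of HEY1, was also higher in BMP4 cells in both windows. It had 832 on day 0 in BMP4 cells, against 511 in untreated cells. Over days 1 to 3 it had 600, 698 and 980 in BMP4 cells, against 524, 415 and 483 in untreated cells. Over days 4 to 7 it had 1147, 1689, 1742 and 1660 in BMP4 cells, against 363, 344, 295 and 248 in untreated cells. The groups did not overlap in either window, and the late gap widened on each day. The untreated level became lower over these days, and the BMP4 level rose from day 4 to day 5. HEY2 was 6.99-fold higher in the late window (adjusted p = 1.20e-08, log2 change 2.81, SE 0.20). The effect was larger over days 4 to 7 than over days 1 to 3, by 2.01 on the log2 scale (SE 0.31, adjusted p = 0.00156), where 9.52% of all tested genes were called, 5.07% with a higher late effect. HEY2 was past that test and the other 9 genes were not.

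The early HEY2 change was small (log2 change 0.79, SE 0.23, adjusted p = 0.0169) and did not hold under every setting. It was 0.67 without the untreated array of day 2 (adjusted p = 0.0746) and 0.56 without the BMP4 array of day 3 (adjusted p = 0.0906). After subtraction of the day 0 difference of 0.84 it was -0.05, and the late change was 1.97 (adjusted p = 0.00766). Within the BMP4 group the late HEY2 level was higher than the early level by 1.17 (adjusted p = 0.000958). Within the untreated group its late level was lower by 0.85, which did not pass the test (adjusted p = 0.240), in a comparison where 0.0764% of all tested genes were called.

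HES1 and HES5, the HES genes most often used to read Notch activity, did not pass the test in either window. HES1 had 178 on day 0 in BMP4 cells, against 215 in untreated cells. Over days 1 to 3 it had 345, 282 and 305 in BMP4 cells, against 231, 231 and 284 in untreated cells. Over days 4 to 7 it had 253, 308, 352 and 374 in BMP4 cells, against 345, 323, 334 and 405 in untreated cells. The groups overlapped in both windows, and the largest gap in favour of BMP4 cells was that of day 1. The early change of 0.52 (SE 0.21, adjusted p = 0.0780) and the late change of -0.21 (95% interval -0.60 to 0.18, adjusted p = 0.353) were both short of the threshold. The late interval excludes a change of the size seen for HEY1 or HEY2. HES1 passed the early test without the untreated array of day 3 (0.68, adjusted p = 0.0448) and without the BMP4 array of day 4 (adjusted p = 0.0362). It also passed with days 1 to 2 as the early window (0.70, adjusted p = 0.0309). On day 0 HES1 was lower in BMP4 cells, with a log2 difference of -0.57 that rests on 1 array per group. With that difference subtracted, the early change was larger, at 1.0835, and the late change was 0.36. Neither passed the test.

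HES5 lay close to the floor on most arrays. It had 201 on day 0 in BMP4 cells, against 136 in untreated cells. Over days 1 to 3 it had 235, 159 and 145 in BMP4 cells, against 141, 143 and 127 in untreated cells. Over days 4 to 7 it had 144, 134, 138 and 155 in BMP4 cells, against 130, 126, 128 and 176 in untreated cells. The BMP4 arrays of days 1 and 0 were the highest of the 16, and the groups did not overlap in the early window. The early change of 0.98 (SE 0.40) had an adjusted p of 0.0696, and of 0.0156 with the day as a replicate block. It was 0.51 without the BMP4 array of day 1 (adjusted p = 0.312) and 1.32 without that of day 3 (adjusted p = 0.0262), and it also passed the test without the untreated array of day 7 (adjusted p = 0.0303). The day 0 difference was 1.54, larger than the early change, and with it subtracted the early value was -0.56 (adjusted p = 0.757). The late change was 0.18 (95% interval -0.54 to 0.90, adjusted p = 0.682).

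**Figure D2:**
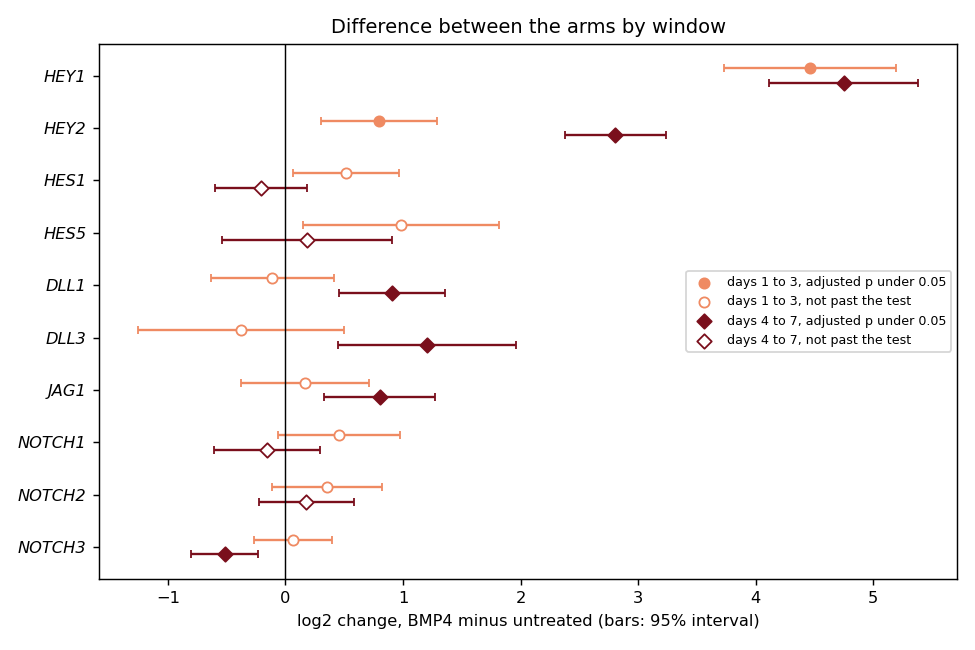
Log2 change between BMP4 and untreated cells for each gene, with days 1 to 3 as orange circles, days 4 to 7 as dark diamonds, filled where the adjusted p is under 0.05, and bars for the 95% interval. HEY1 lies at 4.46 and 4.75, HEY2 moves to 2.81 in the late window, and the 3 ligands lie between 0.80 and 1.20 there.

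All 3 ligand genes were higher in BMP4 cells in the late window, each with its own course. DLL3, a divergent Delta family member known as an inhibitor of Notch signalling within the cell that makes it, peaked and then declined. It had 436, 301 and 773 over days 1 to 3 in BMP4 cells, against 534, 476 and 705 in untreated cells. Over days 4 to 7 it had 1523, 1282, 825 and 462 in BMP4 cells, against 472, 442, 465 and 444 in untreated cells. The BMP4 level was thus highest on days 4 and 5 and was back among the untreated values on day 7. The late change was 1.20 (SE 0.36, adjusted p = 0.00921). The late minus early difference was 1.58 (adjusted p = 0.0801, and 0.0270 with the day as a replicate block). The second DLL3 probe, dim on all arrays, gave a late change of 0.79 (SE 0.23, adjusted p = 0.00753) and a late minus early difference of 1.26 (adjusted p = 0.0333).

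DLL1, an activating Delta ligand, had 203, 187 and 248 over days 1 to 3 in BMP4 cells, against 217, 208 and 232 in untreated cells. Over days 4 to 7 it had 333, 377, 373 and 269 in BMP4 cells, against 205, 218, 208 and 286 in untreated cells. It was raised on days 4, 5 and 6, while on day 7 the untreated array was the higher, so that the groups overlapped. The late change was 0.91 (SE 0.21, adjusted p = 0.00171). JAG1, the Jagged ligand, had 577, 394 and 373 over days 1 to 3 in BMP4 cells, against 398, 358 and 456 in untreated cells. Later, over days 4 to 7, it had 453, 716, 819 and 941 in BMP4 cells, against 431, 471, 469 and 418 in untreated cells. Its gap was widest on day 7, the day on which DLL1 and DLL3 no longer differed much. The late JAG1 change was 0.80 (SE 0.22, adjusted p = 0.00587). After subtraction of the day 0 difference, the late changes of DLL1 (1.11, adjusted p = 0.111), DLL3 (1.45, adjusted p = 0.218) and JAG1 (0.61, adjusted p = 0.414) kept their direction and did not pass the test.

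In the early window none of the ligand genes passed the test. DLL1 had a log2 change of -0.11 (adjusted p = 0.779), DLL3 of -0.38 (adjusted p = 0.536) and JAG1 of 0.16 (adjusted p = 0.679). HEY1 was already at 471 in BMP4 cells on day 1, a log2 difference of 3.98 between the groups. On that day the differences were -0.18 for DLL1, -0.37 for DLL3 and 0.68 for JAG1. They were 1.79 for HES5, 1.19 for NOTCH1, 0.91 for HES1, 0.69 for NOTCH2, 0.43 for NOTCH3 and 0.24 for HEY2. Each rests on 1 array per group. Within the BMP4 group all 3 ligand genes were higher in the late than in the early window (DLL1 by 1.10, DLL3 by 1.20 and JAG1 by 0.84), as were HEY1 and HEY2. These 5 stand against 27.3% of all tested genes called in that comparison, 13.1% as higher. Of these 5 calls, between 2 and 4 remained when 1 BMP4 array of days 1 to 7 was left out, and those of HEY2 and DLL1 remained each time. The lowest count came without the array of day 2 or of day 6, when HEY1, DLL3 and JAG1 were not past the test.

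Of the receptors NOTCH3 passed the late test, and NOTCH1 and NOTCH2 passed neither. NOTCH3 was lower in BMP4 cells in the late window. It had 545, 557, 563 and 536 over days 4 to 7 in BMP4 cells, against 722, 698, 699 and 868 in untreated cells, without overlap. The BMP4 values were close to each other, and the gap was widest on day 7, where the untreated level was highest. The late change was -0.52 (SE 0.14, adjusted p = 0.00384), and it was -0.93 with the day 0 difference subtracted (adjusted p = 0.0395). NOTCH1 had 934, 657 and 452 over days 1 to 3 in BMP4 cells, against 468, 480 and 556 in untreated cells. It was high on days 1 and 2 and low on day 3, and the early change of 0.46 (SE 0.25, adjusted p = 0.175) was 0.15 without the BMP4 array of day 1 (adjusted p = 0.649) and 0.77 without that of day 3 (adjusted p = 0.0152). With days 1 to 2 as the early window it was 0.87 (adjusted p = 0.0136). On day 0 NOTCH1 already had 676 in BMP4 cells, against 469 in untreated cells. With that day 0 difference of 0.64 on the log2 scale subtracted, the early value was -0.19 (adjusted p = 0.878). The late change of NOTCH1 was -0.16 (95% interval -0.60 to 0.29, adjusted p = 0.553).

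NOTCH2 could not be measured reliably. Its brightest probe lay between 135 and 164 in BMP4 cells and between 116 and 140 in untreated cells, above the floor on 9 of 16 arrays. The other 2 probes exceeded the floor on 0 and on 1 of the 16 arrays. NOTCH2 is nearly identical to the NOTCH2NL genes over part of its length, so the assignment of its probes is uncertain, and no change was detectable in either window (0.35 and 0.18 on the log2 scale, adjusted p = 0.248 and 0.450).

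The remaining HES and HEY family genes and common Notch targets were mostly lower where they were called. Of 8 listed, 6 were tested. In the early window 0 were higher and 2 lower, beside 16.4% and 13.6% of all tested genes. In the late window 1 was higher and 4 were lower, beside 27.8% and 27.2% of all tested genes. Their median late log2 change was -0.85 (-0.65 with genes that have only a bound set at it) against 0.00 over all tested genes. HES3, a HES family gene, was at least 3.72-fold lower in BMP4 cells in the early window (adjusted p = 1.32e-06) and at least 4.71-fold lower in the late window (adjusted p = 3.42e-09, log2 change -2.72, SE 0.17). NRARP, a feedback inhibitor and widely used target of Notch, was at least 2.49-fold lower in the late window (adjusted p = 1.06e-05, log2 change -1.62, SE 0.22). DTX1, the Deltex ubiquitin ligase gene, was at least 1.56-fold lower (adjusted p = 4.92e-05), and HEYL, the third HEY gene, was lower with a log2 change of -0.66. HES4 was the exception, with a late log2 change of 1.40 (SE 0.38, adjusted p = 0.00518). HES6, known to oppose HES1, did not pass the test (-0.38, adjusted p = 0.136).

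After the same subtraction of day 0, 2 of these 6 were called in the late window, both lower, and NRARP (-1.01, adjusted p = 0.158), DTX1 (adjusted p = 0.730) and HES4 (1.42, adjusted p = 0.259) were not. HES3 and HEYL were the 2 called. In the early window HES3 was still called, and NRARP was not (-0.09). On day 0 NRARP had a log2 difference of -0.61 and HEYL one of 0.82, and DTX1 lay under the floor in BMP4 cells.

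**Figure D3:**
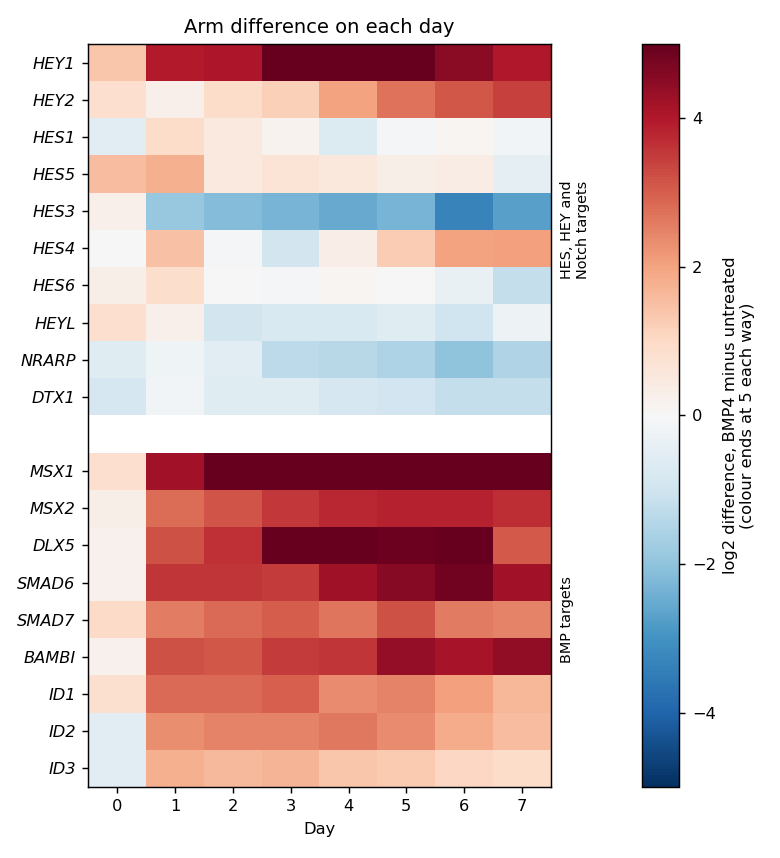
Log2 difference between BMP4 and untreated cells on each day (1 array per group and day; red, higher in BMP4 cells; blue, lower) for HES, HEY and other Notch targets above and direct BMP targets below. The row of HEY1 is at 3.98 on day 1 and 4.01 on day 7, whereas HES1, HES5, HEYL, NRARP and DTX1 stay between -2.02 and 1.79. HEY2 reaches 3.42 and HES4 2.03 on day 7, and HES3 reaches -3.34 on day 6. Differences that involve an array under the floor depend on the offset.

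The course of HEY1 within the BMP4 group was then set beside those of other genes. Pearson's r was taken over the 8 BMP4 arrays among 2412 genes with an SD of at least 0.5 on the log2 scale. It is a description only, because the points share arrays, normalization and a common trend over days. The genes with the highest r were MSX1, a homeobox target of BMP signalling, WLS, which encodes a carrier of Wnt ligands, COL9A2, the ephrin ligand gene EFNA1 and the prostaglandin transporter gene SLCO2A1, each with r = 0.99. Among the BMP targets r was 0.99 for MSX2, 0.98 for DLX5, 0.96 for BAMBI and ID2, 0.95 for SMAD6, 0.83 for SMAD7, 0.56 for ID1 and 0.50 for ID3. Among the Notch genes it was 0.76 for HES1, 0.65 for DLL1, 0.58 for HEY2, 0.50 for JAG1 and 0.39 for DLL3, and it was below 0 for HES5 (-0.77), NOTCH1 (-0.62), NOTCH3 (-0.43) and NOTCH2 (-0.40). It was -0.95 for HES3 and for HEYL. Of the 2412 genes, 20.8% had a higher r than HES1, 33.7% than DLL1, 40.1% than HEY2, 45.5% than JAG1 and 49.8% than DLL3. Among the BMP targets this share ranged from 0% for MSX1 to 45.5% for ID3, with 13.6% for SMAD7 and 41.7% for ID1.

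The order depended on the arrays and on the probe. With the day 0 array left out, r was -0.19 for HES1 and 0.86 for HEY2. Among the BMP targets it was then 0.96 for MSX1 and DLX5, 0.94 for MSX2, 0.89 for ID2, 0.75 for BAMBI, 0.72 for SMAD6, -0.02 for SMAD7, -0.79 for ID3 and -0.88 for ID1. By the second HEY1 probe the genes with the highest r were BMPR2, MACROH2A2, MDFIC, DDAH2 and KRT19, none of which was among the first 5 by the brightest probe, and r was 0.95 for MSX1, with 0.29 for ID3 and 0.34 for ID1 as the lowest among the BMP targets. In untreated cells, where HEY1 lay near the floor, r over the 8 arrays was -0.87 for HEY2 and 0.67 for HES1.

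**Figure D4:**
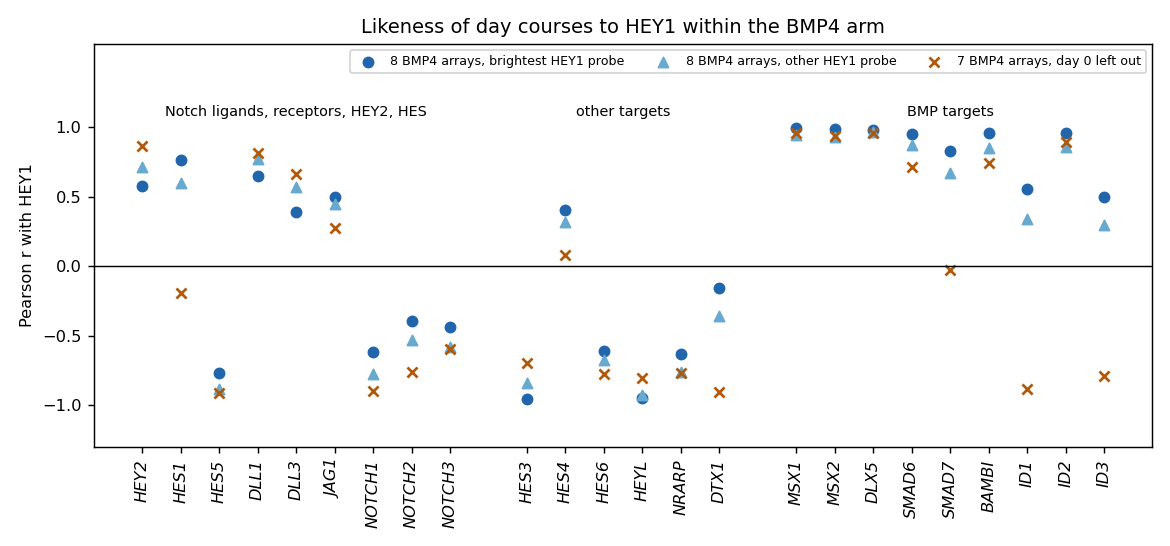
Pearson's r of each gene with HEY1 over the BMP4 arrays, by the brightest HEY1 probe (circles), by the other HEY1 probe (triangles) and without the day 0 array (crosses). MSX1, MSX2 and DLX5 lie above 0.93 under all 3, while HES1 lies at 0.76, 0.60 and -0.19 and ID1 at 0.56, 0.34 and -0.88.

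All 9 direct BMP targets that were tested were higher in the early and in the late window, with medians of 3.15 and 3.79 on the log2 scale (2.89 and 3.47 with bounds in place of fitted values). Over all tested genes 16.4% were called higher early and 27.8% late. With the day 0 difference subtracted, 7 of the 9 early calls and all 9 late calls held. The early calls of SMAD7 (1.84, adjusted p = 0.0702) and DLX5 (3.73, adjusted p = 0.0622) did not. The largest late changes were those of MSX1 (6.10, SE 0.25), DLX5 (4.79, SE 0.44) and SMAD6 (4.45, SE 0.20), the last an inhibitor in the feedback of BMP signalling. Their courses differed, since the difference between the groups was 2.81 on day 1 and 1.65 on day 7 for ID1 and 1.77 and 0.90 for ID3, but 3.57 and 4.21 for SMAD6 and 3.17 and 4.44 for BAMBI. HEY1, with 4.46 and 4.75, lay within the range of these 9 genes in each window, which was 1.70 to 4.92 in the early and 1.15 to 6.10 in the late window. HEY2, with 0.79 and 2.81, lay below that range in the early window and within it in the late window. The late range is wide and also took in DLL3 (1.20), HES4 (1.40) and FURIN (2.95), so a place within it is not particular to BMP targets.

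Genes of receptor processing that were called were all higher in BMP4 cells. Of 9 processing genes 8 were tested, 3 were higher and 0 lower in the early window, and 5 were higher and 0 lower in the late window, where 16.4% of all tested genes were called higher early and 27.8% late. FURIN, the protease that cuts the Notch precursor on its way to the surface, was 7.75-fold higher in the late window (adjusted p = 1.33e-08, log2 change 2.95, SE 0.22). NCSTN, the nicastrin subunit of gamma-secretase, had a late change of 1.16 (SE 0.09, adjusted p = 2.43e-08), and ADAM17, a protease that can cut the receptor, one of 0.64 (SE 0.13). ADAM10, the main protease of ligand-driven cleavage, did not pass the test (0.08, adjusted p = 0.711). The late calls of FURIN and NCSTN, 2 of 5, held with the day 0 difference subtracted, and none of the 3 early calls did.

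Of 14 listed genes of the nuclear complex 12 were tested, with 0 higher and 5 lower in the early window and 2 higher and 5 lower in the late window. In the early window 16.4% of all tested genes were called higher and 13.6% lower. The late count is close to the 55.0% called over all tested genes. RBPJ itself was lower in both windows, with log2 changes of -0.49 (SE 0.16, adjusted p = 0.0305) and -1.10 (SE 0.14, adjusted p = 5.08e-06). The acetyltransferase gene EP300 (-1.15, SE 0.13) and the co-repressor gene TLE1 (-1.02, SE 0.16) were lower in the late window, and the co-activator gene MAML2, dim in untreated cells, was at least 1.21-fold higher. With the day 0 difference subtracted, 3 late calls held, those of RBPJ, SNW1 and TLE1, all lower, and none of the 5 early calls did. TLE3, called higher in the late window, was then at -0.49.

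The Fringe genes, whose products add sugars to Notch and alter its response to Delta and Jagged ligands, were lower where they changed. LFNG was 3.10-fold lower in the late window (adjusted p = 2.48e-05, log2 change -1.63, SE 0.24) and MFNG was at least 1.87-fold lower (-1.26, SE 0.20), while RFNG did not pass the test (0.09, adjusted p = 0.727). POFUT1 and POGLUT1, which add the first sugars, had late changes of -0.38 and 0.57. In all 1 of 5 glycosylation genes was higher and 3 were lower in the late window, beside 27.8% and 27.2% of all tested genes, and LFNG alone held with the day 0 difference subtracted. POFUT1 (0.30) and POGLUT1 (-0.30) then turned sign, and no early call of this group held.

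Of 12 genes of ligand and receptor endocytosis 10 were tested, with 0 higher and 2 lower in the early window and 3 higher and 3 lower in the late window, where 30.0% and 55.0% of all tested genes were called. MIB2 (-1.29, SE 0.17) and MIB1 (-0.57, SE 0.15), ubiquitin ligases that act on Notch ligands, were lower in the late window, and ITCH (0.69, SE 0.17), a ubiquitin ligase that acts on the receptor, was higher. None of the 6 late and 2 early calls held with the day 0 difference subtracted, and MIB1 (0.35) and ITCH (-0.60) then turned sign. Of the 7 other ligands and receptors 5 were tested. In the early window 0 were higher and 1 was lower, beside 16.4% and 13.6% of all tested genes. In the late window 1 was higher and 2 were lower, beside 27.8% and 27.2% of all tested genes. DLK2, a non-canonical ligand gene, was at least 5.53-fold higher in the late window (adjusted p = 1.79e-06). DNER and CNTN1, which encode neural surface proteins reported to bind Notch, were both lower, DNER at least 3.07-fold and CNTN1 at least 1.78-fold. After subtraction of the day 0 difference the late call of DNER did not hold (adjusted p = 0.145) and that of CNTN1 did (adjusted p = 0.00305), with CNTN1 under the floor in untreated cells on day 0. JAG2 did not pass the test (-0.53, adjusted p = 0.125), and DLL4 and NOTCH4 were below the filter. DLK1 was not called in either window. Its early change of 1.28 passed with the day as a replicate block (adjusted p = 0.0360) and was 0.56 with the day 0 difference subtracted (adjusted p = 0.893). The DLK1 difference was 2.73 on day 1 and -0.36 on day 3. By day 7 its log2 level was 11.67 in BMP4 cells and 10.91 in untreated cells.

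**Figure D5:**
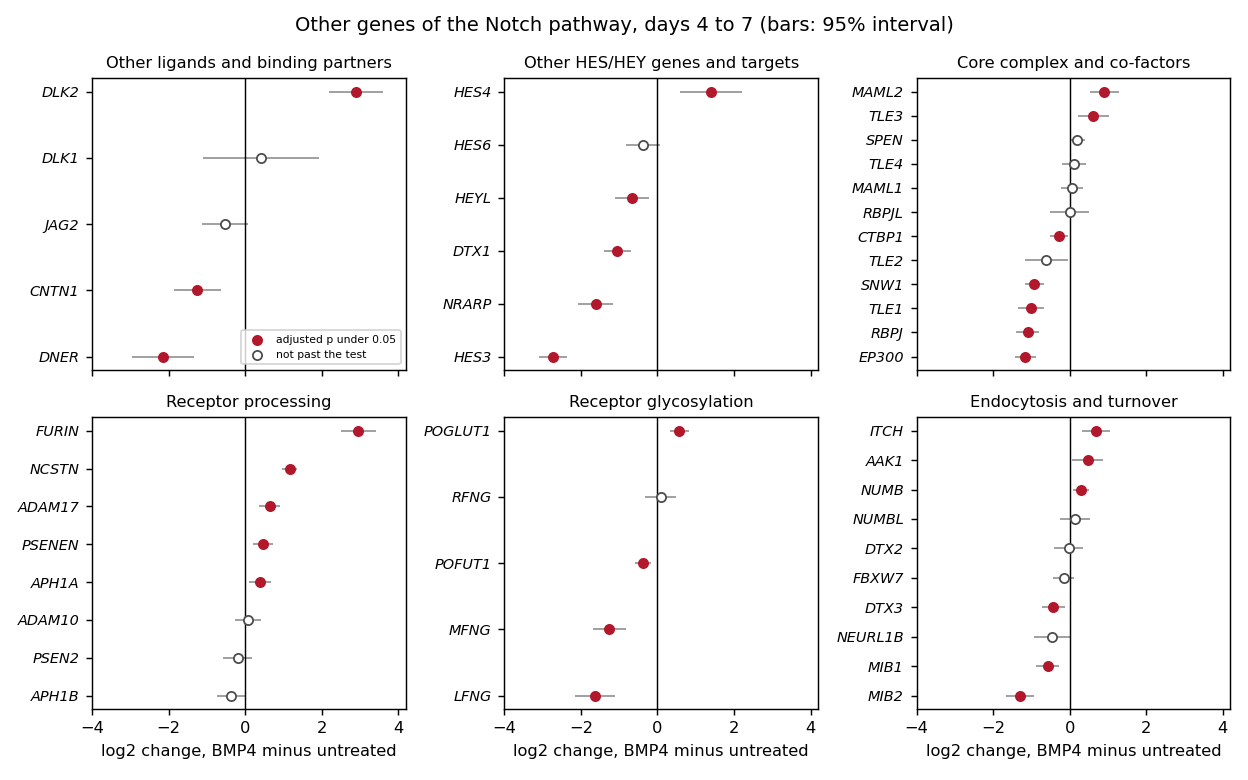
Late log2 change (days 4 to 7) between BMP4 and untreated cells for the other genes of the pathway in 6 groups, with filled points where the adjusted p is under 0.05 and bars for the 95% interval. FURIN lies at 2.95 and LFNG at -1.63, while DLK2, HES3, NRARP, DTX1, DNER, CNTN1, MAML2 and MFNG lay under the floor in 1 group, so that their points are fitted values for which the text gives bounds.

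Markers of cell types in which these genes are also used moved with some of the changes, and in bulk RNA fewer cells of a type and less RNA per cell cannot be told apart. Of 8 endothelial markers 5 were tested and all 5 were higher in the late window, and their summed corrected intensity was 1248 to 3758 in BMP4 cells and 437 to 562 in untreated cells. TEK was the brightest of them, with intensities up to 2804 in BMP4 and 608 in untreated cells. KDR, ESAM, SOX17 and SOX18 did not exceed 672 in BMP4 and 191 in untreated cells, so the sums weigh TEK most. The defining endothelial genes CDH5, PECAM1 and ERG exceeded the floor on 1, 2 and 1 of the 16 arrays. None of the 5 was called (0 of 5) with the day 0 difference subtracted. All 8 trophoblast and amnion markers were higher in the late window, and 7 of the 8 were still called with the day 0 difference subtracted. Their sums were 7732 to 9073 in BMP4 cells and 147 to 260 in untreated cells. In the late window 27.8% of all tested genes were called higher and 27.2% lower.

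DLL1 and DLL3 are also used in presomitic mesoderm, and 3 of its 7 markers were tested. Of these, 2 were higher and 1 was lower in the late window, beside 27.8% and 27.2% of all tested genes. Late sums were 301 to 1609 in BMP4 cells and 511 to 660 in untreated cells. The 2 higher genes, MSGN1 and TBXT, lay under the floor (5.08 on the log2 scale after correction) in untreated cells. The late change was at least 2.04-fold for MSGN1 and 8.52-fold for TBXT (adjusted p = 0.00121 and 2.25e-05). In BMP4 cells MSGN1 had log2 levels of 7.14, 6.27, 5.81 and 5.21 over days 4 to 7, and TBXT had 10.32, 8.30, 7.18 and 6.88. Both thus became lower over the same days as DLL3, which had log2 levels of 10.47, 10.20, 9.50 and 8.49. The early window differed. There TBXT was already higher in BMP4 cells (log2 change 5.60 with the day as a replicate block), while MSGN1 (0.59) and DLL3 (-0.38) did not pass the test. Early sums of the markers were 1006 to 1853 in BMP4 cells and 398 to 496 in untreated cells. The gene that was lower in the late window was LFNG. With the day 0 difference subtracted, the late calls of TBXT (adjusted p = 0.0472) and LFNG held, and that of MSGN1 did not (adjusted p = 0.135). TBX6 exceeded the floor on 2 arrays, RIPPLY2 on 1, and MESP2 and HES7 on 0. Of 8 neural progenitor markers 4 were tested, 0 were higher and 3 were lower, and 1 was still called lower with the day 0 difference subtracted. Late sums were 1656 to 2097 in BMP4 cells and 2315 to 3300 in untreated cells, against 4077 and 4638 on day 0. TUBB3 reached intensities of 4134 in BMP4 and 4710 in untreated cells. NEUROG2 and DCX did not exceed 150.5 in either group. PAX6 exceeded the floor on 3 arrays, NEUROG1 on 1, and SOX1 and NHLH1 on 0. Of the 7 stem cell markers tested 6 were lower in the late window, and 4 were still called lower with the day 0 difference subtracted. Their late sums were 13114 to 18303 in BMP4 cells and 29937 to 33806 in untreated cells. The part of these shifts in the changes of HEY1, HEY2 and the ligands was not tested.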

How the data were processed

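Total RNA of H1 cells was profiled on Illumina bead arrays after biotin labelling, per the labels' protocols. The deposited values are intensities on a linear scale. The authors' intensities appear to be quantile normalized, since all 16 arrays share a median of 128.3 and a highest value of 28353, and no step of scanning or normalization is given in the sources used here. A second deposited table has 32 columns whose names match no label, so they were not used.

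Background was estimated from the values below the main peak at 118.2, mirrored about it (SD 8.02). The 99th percentile, 135.9, was the detection floor. Intensities were corrected with normexp, 16 was added and log2 was taken. Probes above the floor on at least 3 arrays were kept, and each gene was given by its brightest probe. Where the mean of a group in a window lay under the floor, or no array of it exceeded the floor, the fold is a bound ("at least"), for which each value of the dim group under the floor was set to the floor.

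Of 47323 probes 30113 have 1 symbol, and 30074 of these were matched to RefSeq genes of GRCh38.p14. A single limma fit (limma 3.58.1, R 4.3.3) of 6 means, 1 per group and window with day 0 as a window of its own, with an intensity trend, gave all tests. They are two-sided, with Benjamini-Hochberg adjustment over 13083 genes and a threshold of 0.05. On simulated arrays for 13083 genes the early test recovered 75% of changes of 1 on the log2 scale and 97% of changes of 2, and the late test 85% and 100%. There 100 genes were changed by each amount, with independent noise and no trend over days. In the data 30.0% of genes were called early and 55.0% late, so these rates need not hold for the tests as run. The day label is shared by the groups and was used as a replicate block in an alternative fit. Deviations from the window means correlated between same-day arrays with r from -0.04 to 0.29, so the data give little sign of pairing beyond the label.

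The genes, lists and tests were chosen with earlier results of these data known. Named are the 10 genes with all their probes, in each list the 3 largest late changes past the test with others as examples, and the 5 genes most like HEY1. The list counts under other settings were added after seeing the data.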

Additional observations from a re-analysis of the deposited data

Results flagged for a closer look

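Among 20 groups of 4 late arrays (10 genes in BMP4 and in untreated cells), 4 held an array that stood apart from the other 3 by Dixon's criterion, which chance meets in about 1 of 20 groups. HEY2 in BMP4 cells had a log2 level of 10.03 on day 4, below the 10.61 to 10.68 of the other late days. NOTCH1 in BMP4 cells had 8.77 on day 4, above the 8.56 to 8.6 of the others. In untreated cells HES5 had 6.20 on day 7, above the 4.69 to 4.84 of the others, and NOTCH3 had 9.58 on day 7, above the 9.22 to 9.27 of the others. The BMP4 effect on HEY2 differed between the windows, and it was larger in the late window by 2.01 on the log2 scale (SE 0.31, adjusted p = 0.00156 by limma).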

How the results depend on the processing

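The early and late calls of HEY1 and the late calls of HEY2 and NOTCH3 held under all alternatives run, those leaving out 1 array included. Subtracting the day 0 difference, which rests on 1 array per group, took the count of the 10 genes called to 1 in the early and 3 in the late window, and that of all tested genes to 319 and 2609. It also turned the early values of HEY2 (-0.05), HES5 (-0.56), NOTCH1 (-0.19), NOTCH2 (-0.62), NOTCH3 (-0.35), DLL1 (0.09) and JAG1 (-0.02) and the late values of HES1 (0.36), HES5 (-1.36) and NOTCH2 (-0.80), of which HEY2 alone had been called. The count of late minus early calls was 2 with the mean of a gene's probes, 2 with the day as a replicate block, and 4 of the 10 (2270 of all genes) with windows of days 1 to 2 and 5 to 7. With those windows 2 of the 10 changed within untreated cells (119 of all genes), and HES5 (-0.08) and NOTCH2 (0.02) turned there. The count of all genes that changed within untreated cells, 10 with 982 at an unadjusted p under 0.05, was 1 with no background correction, 3 with an offset of 50 and 6 with a floor passed on 6 arrays. The replicate block added the early call of HES5 and the late minus early call of DLL3 and changed no other call of the 10.

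Leaving out 1 array gave 1 to 3 early calls, 6 to 6 late calls, 1 to 5 late minus early calls and 2 to 6 calls within BMP4 cells among the 10, and 0 to 0 within untreated cells. Over all genes it gave 672 to 2405 late minus early calls, 1 to 26 within untreated cells and 2298 to 4431 within BMP4 cells. The values that changed sign in this way ranged, in the early window, from -0.05 to 0.27 for NOTCH3, -0.33 to 0.06 for DLL1, -0.84 to 0.04 for DLL3 and -0.09 to 0.32 for JAG1. For late minus early they ranged from -0.09 to 0.59 for HEY1 and -0.37 to 0.07 for NOTCH2. Within untreated cells they ranged from -0.34 to 0.16 for HES5, -0.18 to 0.03 for NOTCH2 and -0.11 to 0.18 for DLL1. Within BMP4 cells they ranged from -0.06 to 0.22 for HES1, -0.42 to 0.02 for NOTCH2 and -0.27 to 0.05 for NOTCH3. None of these values was past the test. Without the BMP4 array of day 3 the late minus early count was 5, with NOTCH1, NOTCH3, DLL1 and DLL3 added.

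The likeness to HEY1 moved by over 0.1 for most genes. By the other probe r was 0.71 for HEY2, 0.60 for HES1, -0.88 for HES5, -0.77 for NOTCH1, -0.53 for NOTCH2, -0.58 for NOTCH3, 0.77 for DLL1 and 0.57 for DLL3. Without day 0 it was 0.86, -0.19, -0.91, -0.89, -0.76, -0.60, 0.81 and 0.66 for the same genes in the same order, and 0.27 for JAG1. The causes were not tested. HES5, NOTCH2 and untreated HEY1 lie close to the floor, which limits what their changes can show.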
